A study of Mus musculus with 3 samples.

Results

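The acyl-CoA thioesterase genes Acot1, Acot2, Acot3, Acot4, Acot8, Acot9, Acot12 and Acot13 were followed across mouse liver libraries. They are the 8 rows, of 41799 gene rows in each deposited table, whose gene symbol is one of these names. The liver came from male C57BL/6 mice aged 14 weeks, and each of 3 groups gave 1 RNA sequencing library. The first group received a high-fat diet with 40 mg/kg of DfCS-Ib by oral gavage, DfCS-Ib being a code name for what the series' design text calls a sulfated oligosaccharide. The second received the high-fat diet as its negative control, and the third received regular chow. All mice had free access to food and water, and groups held 8 mice each; how many of them gave RNA to a library is not given in the sources used here. The libraries are called DfCS-Ib, high-fat and chow below. With 1 library per group no difference has a replicate check, no p-value was computed; what follows describes the libraries themselves and cannot speak for the conditions.

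Acyl-CoA thioesterases split acyl-CoA, the activated form in which cells use fatty acids, into the free acid and coenzyme A. They thereby oppose the acyl-CoA synthetases and help set how much acyl-CoA and free coenzyme A each compartment holds. Acot1 to Acot6 form a family of closely related tandem genes, several of which are known in mouse liver as targets of the nuclear receptor PPAR alpha and as genes that respond to fasting, while the higher-numbered genes encode unrelated proteins with a hotdog fold. Of the forms followed here, Acot1 and Acot12 are cytosolic, Acot2, Acot9 and Acot13 are mitochondrial or associated with mitochondria, and Acot3, Acot4 and Acot8 are peroxisomal.

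In mm10, the build of the files, Acot1 to Acot6 stood in a row on the plus strand of chromosome 12, in the order Acot2, Acot1, Acot4, Acot3, Acot5 and Acot6. The row spanned 121.9 kb. Acot2 lay at chr12:83987861-83993877, Acot1 at chr12:84009502-84017670, Acot4 at chr12:84038379-84044723 and Acot3 at chr12:84051997-84060400. The gap between neighbours was 15.6 kb from Acot2 to Acot1, 20.7 kb from Acot1 to Acot4 and 7.27 kb from Acot4 to Acot3. The other members were spread over 3 chromosomes. Acot12 lay at chr13:91741511-91786148 on the plus strand, Acot13 at chr13:24817948-24831564 on the minus strand, Acot8 at chr2:164792768-164820208 on the minus strand and Acot9 at chrX:155262431-155297651 on the plus strand.

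Promoter windows from RefSeq (GRCm38.p6, the assembly also called mm10) reach from 250 bases before to 50 bases after a gene start and were matched for 7 of the 8 genes, all but Acot13. PPAR alpha is known to bind direct repeats of AGGTCA with 1 base between them, so both strands were searched for AGGTCANAGGTCA with up to 2 mismatches and for AGGTCA alone without mismatch; the mismatch limit was chosen after matches had been seen. The windows of 4 genes are shown because they cover Acot1, Acot4 and Acot3, neighbours in the row whose library-to-library ratios differed, and Acot12, the member with the most counts. Each is printed on the plus strand, the strand of its gene, 5′ to 3′. Capitals mark the match of the repeat in Acot4 and Acot12 and of the single AGGTCA in Acot3, all read on the opposite strand; the Acot1 window, at chr12:84009252-84009551, held neither.
Acot1: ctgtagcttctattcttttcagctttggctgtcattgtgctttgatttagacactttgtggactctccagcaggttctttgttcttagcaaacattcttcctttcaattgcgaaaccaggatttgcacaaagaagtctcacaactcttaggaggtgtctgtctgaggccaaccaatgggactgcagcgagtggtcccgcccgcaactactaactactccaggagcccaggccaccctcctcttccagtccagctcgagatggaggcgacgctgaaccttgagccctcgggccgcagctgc
Acot4: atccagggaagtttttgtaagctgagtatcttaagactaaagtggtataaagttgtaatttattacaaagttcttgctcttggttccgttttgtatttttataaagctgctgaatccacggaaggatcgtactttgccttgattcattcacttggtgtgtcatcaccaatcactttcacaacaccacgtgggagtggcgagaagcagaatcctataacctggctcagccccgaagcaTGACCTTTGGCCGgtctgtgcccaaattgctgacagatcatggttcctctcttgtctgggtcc
Acot3: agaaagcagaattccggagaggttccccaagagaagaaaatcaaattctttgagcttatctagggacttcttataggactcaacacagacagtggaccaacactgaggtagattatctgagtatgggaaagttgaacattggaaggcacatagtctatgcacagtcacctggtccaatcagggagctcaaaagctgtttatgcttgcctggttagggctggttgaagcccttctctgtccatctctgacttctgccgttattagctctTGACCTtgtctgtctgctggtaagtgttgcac
Acot12: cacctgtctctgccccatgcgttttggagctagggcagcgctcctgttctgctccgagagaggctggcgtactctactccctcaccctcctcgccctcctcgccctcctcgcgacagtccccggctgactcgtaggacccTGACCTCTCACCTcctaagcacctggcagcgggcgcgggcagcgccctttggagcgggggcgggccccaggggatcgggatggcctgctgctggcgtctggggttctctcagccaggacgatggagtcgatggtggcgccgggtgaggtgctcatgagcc

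The Acot4 window lies at chr12:84038129-84038428, the Acot3 window at chr12:84051894-84052193 and the Acot12 window at chr13:91741271-91741570. RefSeq begins the Acot4 gene at base 84037254, before its window, and the Acot12 gene at base 91741326, within its window. The start used for each window is thus not the first base of the gene in RefSeq, and both matches lie past that base. Counting from 1 at the 5′ end of the searched repeat, the word in Acot4 was CGGCCAAAGGTCA, with the substitutions A1C and T4C, and that in Acot12 was AGGTGAGAGGTCA, with the substitution C5G. In both, the exact AGGTCA is a part of the repeat. The windows of Acot2, Acot8 and Acot9 held neither motif. The Acot8 window, at chr2:164804832-164805131, lies inside the gene, which RefSeq begins at base 164820219 on the minus strand. The sequence around that base was not searched. Among 32851 promoter windows of the same length, 16.3% held AGGTCA, 0.554% held the repeat with at most 1 mismatch and 3.86% held it with at most 2. These matches describe letters in the window and not binding.

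Levels per length, as the RPKM deposited by the authors (reads per length and library total), placed Acot12, Acot1 and Acot13 at the top and Acot9 at the bottom. Acot12 had 70.7 RPKM in the DfCS-Ib library, 50.2 RPKM in the high-fat library and 83.3 RPKM in the chow library. Acot1 had 49.8 RPKM in the DfCS-Ib, 14.0 in the high-fat and 58.6 in the chow library. Acot13 had 40.0 RPKM in the DfCS-Ib, 54.8 in the high-fat and 39.0 in the chow library. The order Acot12, Acot1, Acot13, Acot4, Acot8 thus held in the DfCS-Ib and chow libraries, while in the high-fat library Acot13 stood above Acot12 and Acot1 came only after both. Of the less abundant forms, Acot4 had 15.4 RPKM in the DfCS-Ib, 11.3 in the high-fat and 23.3 in the chow library, and Acot8 had 10.4, 9.69 and 10.8 RPKM in the same libraries. Acot2 had 5.35 RPKM in the DfCS-Ib, 2.89 in the high-fat and 7.34 in the chow library. Acot3 had 2.07 RPKM in the DfCS-Ib, 1.81 in the high-fat and 7.59 in the chow library. Acot9 had 1.60 RPKM in the DfCS-Ib, 0.851 in the high-fat and 1.20 in the chow library and was the lowest of the 8 in each. In the high-fat library the neighbours Acot13 and Acot12 had overlapping counting intervals, as did Acot1 and Acot4, and Acot4 and Acot8; in chow so did Acot3 and Acot2, and in DfCS-Ib Acot3 and Acot9. Set against the 13153 genes that averaged 1 CPM or more (counts scaled to a common library size), Acot12 stood above 94.4% of genes in the DfCS-Ib library, 91.7% in the high-fat library and 95.5% in the chow library. Acot1 stood above 92.4%, 75.7% and 93.8% of genes in the DfCS-Ib, high-fat and chow libraries.

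**Figure D1:**
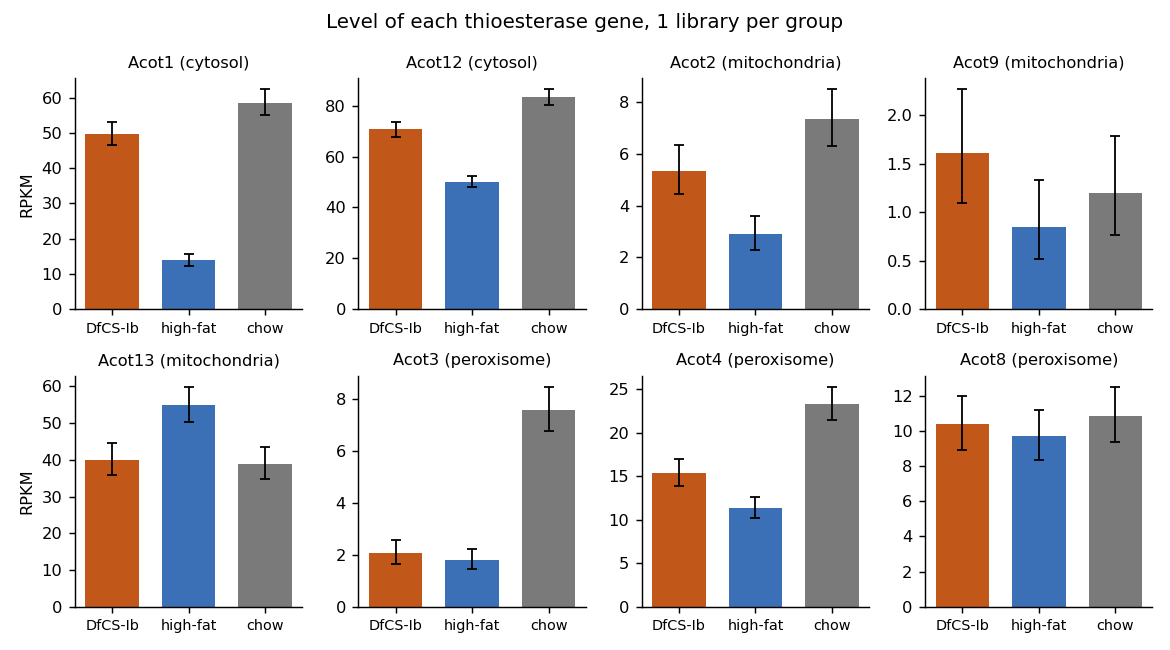
Level of each of the 8 acyl-CoA thioesterase genes, in RPKM on a linear axis from 0 that differs between panels, in the DfCS-Ib, high-fat and chow libraries (1 library per group); bars are the values and lines their 95% exact Poisson counting intervals. Acot1 has 49.8 RPKM in the DfCS-Ib library, against 14.0 in the high-fat and 58.6 in the chow library, and Acot13 is the gene whose high-fat value lies above both others.

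Ratios between libraries were taken on counts scaled with TMM factors, and an interval after a ratio is the 95% exact (Clopper-Pearson) interval of the split of the gene's counts, which covers counting error only. A gene was counted as higher or lower where the log2 ratio of CPM plus 1 passed 1 or -1, a difference of 2-fold. All 8 of the genes passed the minimum of 1 CPM. For DfCS-Ib against the high-fat diet, 1 of the 8 (Acot1) was at least 2-fold higher, against 2.46% of all genes analysed, and 0 were lower, against 2.02%. For the high-fat diet against chow, 4 of the 8 (Acot1, Acot2, Acot3 and Acot4) were at least 2-fold lower, against 2.27% of all genes, and 0 were higher, against 3.47%. That count was 3 on RPKM plus 1, where Acot4 had a log2 ratio of -0.98, and 3 with a pseudocount of 5, where Acot2 had -0.96. Without TMM factors it stayed at 4, with -1.01 for Acot4. Length cancels from the ratio of 1 gene, so RPKM differs from that setting only through the added 1. For DfCS-Ib against chow, 1 of the 8 (Acot3) was at least 2-fold lower, against 0.433% of all genes, and 0 were higher, against 1.62%. The median log2 ratio of the 8 was 0.56 for DfCS-Ib against the high-fat diet, -0.97 for the high-fat diet against chow and -0.24 for DfCS-Ib against chow, beside -0.01, 0.02 and 0.00 over all genes. These comparisons share libraries: a low value in the high-fat library alone would set both of the first 2, so their opposite signs are not separate observations. The genes called lower are also neighbours with similar sequence, so they are not separate observations either. Without TMM factors, the split of all genes for DfCS-Ib against the high-fat diet was 261 higher and 339 lower instead of 324 and 266. On RPKM plus 1 it was 176 and 234. For the high-fat diet against chow, RPKM plus 1 gave 404 higher and 166 lower instead of 457 and 298.

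**Figure D2:**
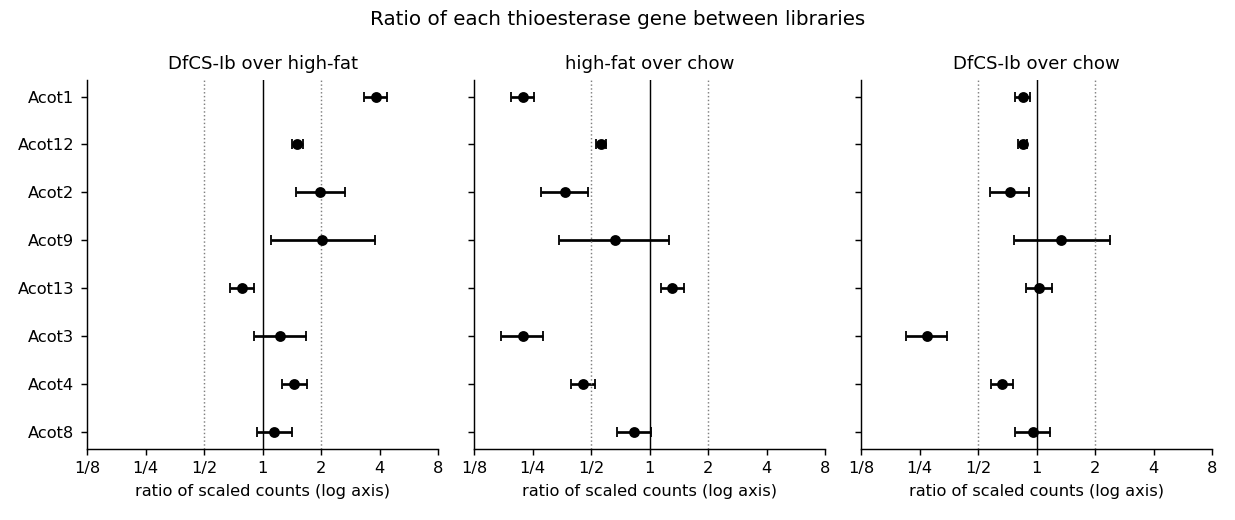
Ratio of scaled counts for each of the 8 genes in the 3 comparisons between libraries, on a log axis, with 95% exact intervals that cover counting error only. Dotted lines mark 2-fold on this ratio, whereas genes were counted on CPM plus 1. Acot9, at 2.02 for DfCS-Ib against the high-fat diet, thus lies past the line but was not counted. For DfCS-Ib against the high-fat diet Acot1 lies at 3.81, past the 2-fold line by its whole interval, and Acot13 is the one gene under 1.

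The cytosolic forms were both lowest in the high-fat library. Acot1 hydrolyses long-chain acyl-CoA in the cytosol and is known as a fasting-induced PPAR alpha target in mouse liver. It had 851 counts in the DfCS-Ib library, 268 in the high-fat library and 1008 in the chow library. The high-fat library was low and the other 2 were closer to each other. Acot1 was 3.81-fold higher with DfCS-Ib than with the high-fat diet (3.32 to 4.39) and 4.498-fold lower with the high-fat diet than with chow (3.93 to 5.17). With DfCS-Ib it was 1.18-fold lower than with chow (1.08 to 1.30). Acot12 hydrolyses acetyl-CoA in the cytosol. It had 2373 counts in the DfCS-Ib library, 1884 in the high-fat library and 2810 in the chow library. The order of the libraries was that of Acot1 with smaller differences, none of them 2-fold. Acot12 was 1.51-fold higher with DfCS-Ib than with the high-fat diet (1.42 to 1.61), 1.78-fold lower with the high-fat diet than with chow (1.68 to 1.89) and 1.18-fold lower with DfCS-Ib than with chow (1.12 to 1.25). In mm10 it overlaps the noncoding gene 4833422C13Rik on the opposite strand by 362 bases. That gene had 236 counts in the DfCS-Ib, 210 in the high-fat and 278 in the chow library; whether reads were counted by strand is not given in the sources used here, so reads in the overlap cannot be told apart.

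The mitochondrial forms did not share a direction. Acot2, a matrix enzyme for long-chain acyl-CoA, had 129 counts in the DfCS-Ib library, 78 in the high-fat library and 178 in the chow library, so the high-fat library was again the low one. Acot2 was 1.98-fold higher with DfCS-Ib than with the high-fat diet (1.49 to 2.66) and 2.73-fold lower with the high-fat diet than with chow (2.08 to 3.61). It was 1.38-fold lower with DfCS-Ib than with chow (1.09 to 1.74). Acot13, also called Them2, binds the phosphatidylcholine transfer protein Pctp and is associated with mitochondria. It had 337 counts in the DfCS-Ib library, 517 in the high-fat library and 330 in the chow library. Here the high-fat library was high and the other 2 were alike to within counting error. Acot13 was 1.28-fold lower with DfCS-Ib than with the high-fat diet (1.11 to 1.47), 1.31-fold higher with the high-fat diet than with chow (1.14 to 1.51), and 1.02-fold with DfCS-Ib relative to chow (0.877 to 1.20). Pctp had 112 CPM in the DfCS-Ib library, 135 CPM in the high-fat library and 77.6 CPM in the chow library. The high-fat library was the high one for the partner gene too: Pctp was 1.21-fold lower with DfCS-Ib than with the high-fat diet (1.12 to 1.30) and 1.74-fold higher with the high-fat diet than with chow (1.60 to 1.90). Acot9, a mitochondrial form, had 32 counts in the DfCS-Ib library, 19 in the high-fat library and 24 in the chow library. At this depth its ratio was 2.02 for DfCS-Ib over the high-fat diet (1.11 to 3.77), with a log2 ratio of CPM plus 1 of 0.69, below the 2-fold rule, and the intervals of its other ratios held 1. Of the 50-base windows of its transcript, 20.2% also occur in Acot10, a related mitochondrial form.

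The peroxisomal forms divided into tandem genes that were low in the high-fat library and Acot8, which was nearly level. Acot4 hydrolyses succinyl-CoA in mouse peroxisomes. It had 393 counts in the DfCS-Ib library, 324 in the high-fat library and 597 in the chow library. The DfCS-Ib library lay between the other 2. Acot4 was 1.45-fold higher with DfCS-Ib than with the high-fat diet (1.25 to 1.69), 2.203-fold lower with the high-fat diet than with chow (1.92 to 2.53) and 1.51-fold lower with DfCS-Ib than with chow (1.33 to 1.72). Acot3, a peroxisomal enzyme for long-chain acyl-CoA, had 87 counts in the DfCS-Ib library, 85 in the high-fat library and 320 in the chow library. It was the member for which both libraries on the high-fat diet were low. Acot3 was 1.23-fold with DfCS-Ib relative to the high-fat diet, with an interval that held 1 (0.8999 to 1.68), 4.50-fold lower with the high-fat diet than with chow (3.53 to 5.79) and 3.67-fold lower with DfCS-Ib than with chow (2.88 to 4.70). Acot8, a peroxisomal form with broad specificity, had 183 counts in the DfCS-Ib library, 191 in the high-fat library and 192 in the chow library. Its ratios were 1.15 for DfCS-Ib over the high-fat diet (0.933 to 1.41), 1.20-fold lower for the high-fat diet than chow (0.979 to 1.48) and 1.05-fold lower for DfCS-Ib than chow (0.850 to 1.29), with 1 inside each interval. Acot8 overlaps the genes Zswim3, by 15095 bases, and Snx21, by 1043 bases, on the opposite strand. Zswim3 had 24 counts in the DfCS-Ib, 21 in the high-fat and 14 in the chow library. Snx21 had 138 counts in the DfCS-Ib, 137 in the high-fat and 150 in the chow library.

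Summed by compartment, the cytosolic forms reached 120.5 RPKM in the DfCS-Ib library, 64.2 RPKM in the high-fat library and 142 RPKM in the chow library. The mitochondrial forms reached 47.0 RPKM in the DfCS-Ib, 58.6 in the high-fat and 47.5 in the chow library. The peroxisomal forms reached 27.9 RPKM in the DfCS-Ib, 22.8 in the high-fat and 41.7 in the chow library. The cytosolic share of the summed RPKM was therefore 61.7% in the DfCS-Ib library, 44.1% in the high-fat library and 61.4% in the chow library. The mitochondrial share was 24.0% in the DfCS-Ib, 40.2% in the high-fat and 20.5% in the chow library. The peroxisomal share was 14.3%, 15.7% and 18.0% in the DfCS-Ib, high-fat and chow libraries. As shares of counts, without length, the cytosolic forms took 73.5% in the DfCS-Ib, 63.9% in the high-fat and 69.9% in the chow library, and the mitochondrial forms 11.4%, 18.2% and 9.75% in the same libraries. The mitochondrial share was thus highest in the high-fat library on both scales, at levels that differ more than 2-fold between the scales there. On scaled counts the cytosolic sum was 1.80-fold higher with DfCS-Ib than with the high-fat diet (1.70 to 1.90) and 2.12-fold lower with the high-fat diet than with chow (2.01 to 2.24). The peroxisomal sum was 1.33-fold higher with DfCS-Ib than with the high-fat diet (1.18 to 1.48) and 2.21-fold lower with the high-fat diet than with chow (2.00 to 2.45); with DfCS-Ib it was 1.67-fold lower than with chow (1.51 to 1.84). The mitochondrial sum differed by scale: its ratio on scaled counts was 0.973 for DfCS-Ib over the high-fat diet (0.863 to 1.097) and 0.965 for the high-fat diet over chow (0.858 to 1.086), while its summed RPKM, in which the short transcript of Acot13 weighs more, was higher in the high-fat library; without TMM factors the log2 ratio for the high-fat diet against chow also turned, to 0.05, against -0.05 with them. That sum joins Acot2, which was low in the high-fat library, with Acot13, which was high there.

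**Figure D3:**
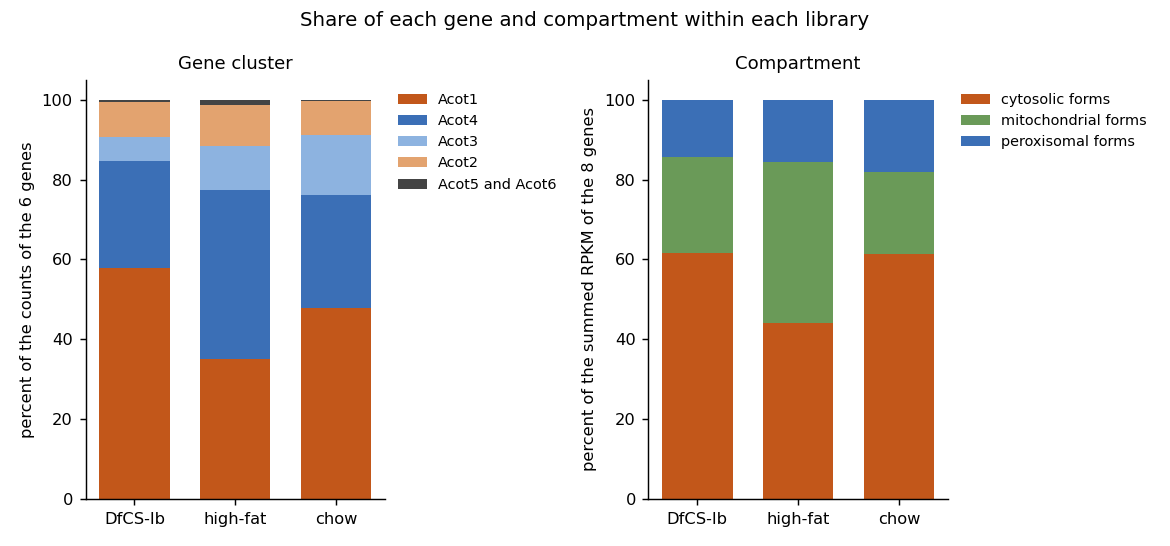
Left, percent of the counts of Acot1 to Acot6 taken by each gene in the DfCS-Ib, high-fat and chow libraries; right, percent of the summed RPKM of the 8 genes taken by the cytosolic, mitochondrial and peroxisomal forms. Acot1 takes 57.9% of the counts of the row in the DfCS-Ib library, 35.0% in the high-fat library and 47.7% in the chow library, and the cytosolic forms take 61.7%, 44.1% and 61.4% of the summed RPKM in the same libraries.

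Within the row on chromosome 12 the genes did not keep their proportions. The 6 genes together had 1469 counts in the DfCS-Ib library, 766 in the high-fat library and 2111 in the chow library, 2.30-fold higher with DfCS-Ib than with the high-fat diet (2.11 to 2.51) and 3.295-fold lower with the high-fat diet than with chow (3.03 to 3.58). Acot1 took 57.9% of these counts in the DfCS-Ib library (55.4 to 60.5), 35.0% in the high-fat library (31.6 to 38.5) and 47.7% in the chow library (45.6 to 49.9). Acot4 took 26.8% in the DfCS-Ib library (24.5 to 29.1), 42.3% in the high-fat library (38.8 to 45.9) and 28.3% in the chow library (26.4 to 30.3). Acot4 thus had more counts than Acot1 in the high-fat library and fewer in both others. Acot3 took 5.92% in the DfCS-Ib library (4.77 to 7.25), 11.1% in the high-fat library (8.96 to 13.5) and 15.2% in the chow library (13.7 to 16.8). The ratio of Acot1 counts to Acot3 counts was 9.78 in the DfCS-Ib library (7.84 to 12.3), 3.15 in the high-fat library (2.46 to 4.07) and 3.15 in the chow library (2.78 to 3.58). Acot1 and Acot3 were therefore lower with the high-fat diet than with chow by like folds, and of the pair Acot1 alone was called higher with DfCS-Ib. Acot2 held a share of 8.78% in the DfCS-Ib, 10.2% in the high-fat and 8.43% in the chow library, with overlapping intervals. Acot5, a peroxisomal medium-chain form, had 0 counts in the DfCS-Ib library and 0 in the high-fat library, which allows up to 0.204% and 0.392% of the row, and 2 counts in the chow library. Acot6 had 9 counts in the DfCS-Ib, 11 in the high-fat and 6 in the chow library. The one other gene annotated between them, the noncoding LOC105244956, was listed at 0 in all 3 libraries.

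**Figure D4:**
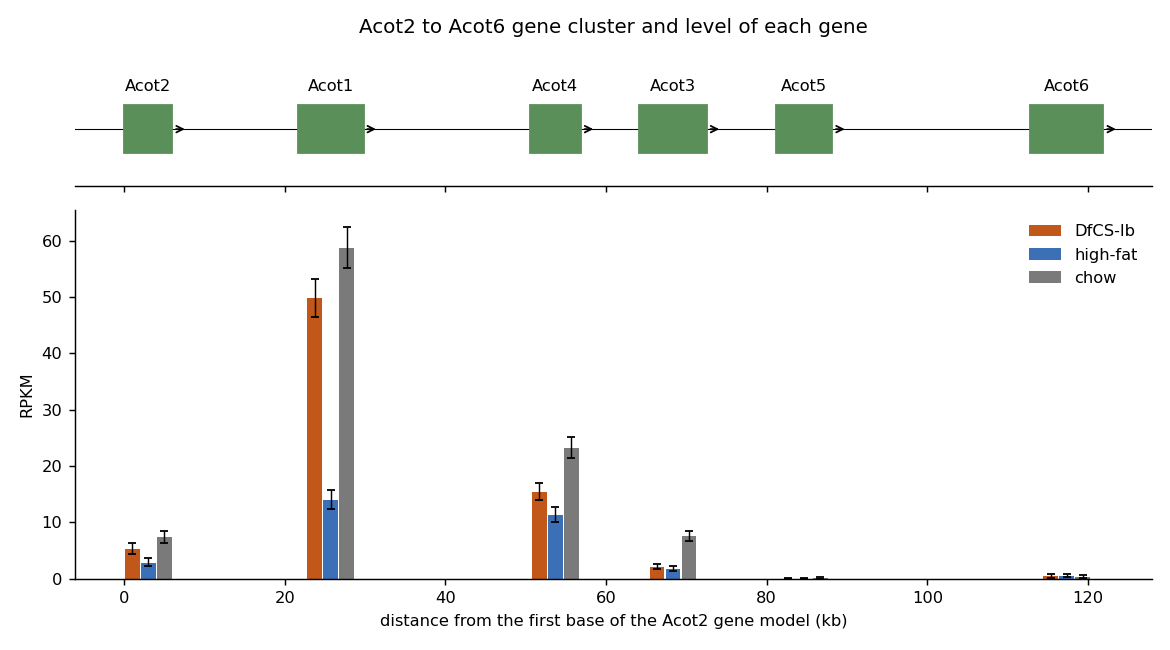
The row of Acot2, Acot1, Acot4, Acot3, Acot5 and Acot6 on chromosome 12, drawn to scale in kb from the start of Acot2, with the RPKM of each gene in the DfCS-Ib, high-fat and chow libraries and 95% exact Poisson counting intervals. Acot3, 64.1 kb along the row, is low in the DfCS-Ib and high-fat libraries, while Acot1, 21.6 kb along it, is low in the high-fat library.

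The counts of the tandem genes can borrow from each other. In a local alignment of their longest protein-coding transcripts (GENCODE M21), Acot1 and Acot2 were identical at 93.8% of 1337 aligned positions, Acot1 and Acot3 at 85.9% of 1172, and Acot1 and Acot4 at 86.1% of 707. Of all 50-base windows, 32.1% of those of Acot1 and 27.6% of those of Acot2 also occur in another member of the family, against 7.69% for Acot3 and 4.48% for Acot4. Acot8, Acot12 and Acot13 shared no such window with another family member. Counted against the transcripts of all other genes on either strand, overlapping genes included, the shares were 33.6% for Acot1, 27.7% for Acot2, 21.7% for Acot3, 14.4% for Acot4 and 17.7% for Acot8, with 3.32% for Acot12 and 0% for Acot13. Read length and the handling of reads with several placements are unknown from the sources used here, so the split between the tandem genes is uncertain, and the effect of shared reads on these values was not tested.

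Of 8 further genes with acyl-CoA thioesterase activity, 5 passed 1 CPM, and 0 of the 5 passed 2-fold in any comparison. The share over all genes, here and for the lists below, was 0.433% to 3.47% by comparison and direction. A count of 0 among 5 is near that share. The median log2 ratio of the 5 was -0.06 for DfCS-Ib against the high-fat diet and 0.17 for the high-fat diet against chow. Acot7, a cytosolic form abundant in brain, had 139 counts in the DfCS-Ib library, 232 in the high-fat library and 171 in the chow library. It was 1.39-fold lower with DfCS-Ib than with the high-fat diet (1.12 to 1.73), and its ratio for the high-fat diet over chow was 1.13, with 1 inside the interval (0.927 to 1.39). Acot11, also called Them1 and known from brown fat, had 36 counts in the DfCS-Ib library, 63 in the high-fat library and 29 in the chow library. It was 1.82-fold higher with the high-fat diet than with chow (1.15 to 2.93), and its ratio for DfCS-Ib over the high-fat diet was 0.685, again with 1 inside the interval (0.442 to 1.048). Them4 had 322 counts in the DfCS-Ib, 282 in the high-fat and 257 in the chow library. Baat, which conjugates bile acids, was level at 136 RPKM in the DfCS-Ib, 139 in the high-fat and 140 in the chow library. The remaining genes, Acot5, Acot6, Acot10 and Them5, had at most 18 counts in any library.

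Enzymes that make acyl-CoA differed in both directions. Of 16 measured acyl-CoA synthetases, 1 was higher and 2 were lower with DfCS-Ib than with the high-fat diet, and 4 were higher and 1 lower with the high-fat diet than with chow, with medians of -0.09 and 0.17. Acss2, which makes acetyl-CoA, had 64.1 CPM in the DfCS-Ib library, 225 CPM in the high-fat library and 67.7 CPM in the chow library. The high-fat library was the high one for Acss2 and the low one for Acot12: Acss2 was 3.51-fold lower with DfCS-Ib than with the high-fat diet (3.23 to 3.82) and 3.33-fold higher with the high-fat diet than with chow (3.06 to 3.61). The long-chain synthetase Acsl3 had the same order, 3.22-fold lower with DfCS-Ib than with the high-fat diet and 3.17-fold higher with the high-fat diet than with chow. Slc27a1, a fatty acid transport protein with synthetase activity, had the opposite order, at 20.1 CPM in the DfCS-Ib, 7.30 in the high-fat and 18.1 in the chow library. Acsm1, a medium-chain synthetase, was 2.24-fold higher with the high-fat diet than with chow. Of 13 genes of coenzyme A synthesis and breakdown, 0 were higher and 1 was lower with DfCS-Ib than with the high-fat diet, and 1 was higher and 0 were lower with the high-fat diet than with chow. The gene past 2-fold in both was Nudt7, a peroxisomal hydrolase of coenzyme A. It had 199 CPM in the DfCS-Ib library, 413 CPM in the high-fat library and 120 CPM in the chow library. Nudt7 was thus highest in the library in which the peroxisomal Acot4 was lowest. Vnn1, a pantetheinase, had 95.3 CPM in the DfCS-Ib, 60.4 in the high-fat and 29.9 in the chow library, while Slc25a42, which carries coenzyme A into mitochondria, and Coasy, of its last synthetic steps, stayed within 2-fold.

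Genes that bind acyl-CoA, pass it on or oxidise it were counted by list. Of 11 carnitine transferases and acyl-CoA binding genes, 2 were higher and 0 lower with DfCS-Ib than with the high-fat diet, and 1 was higher and 3 were lower with the high-fat diet than with chow. Slc22a5, the carnitine importer, had 95.6 CPM in the DfCS-Ib library, 22.7 CPM in the high-fat library and 61.9 CPM in the chow library. Cpt1a, which commits long-chain acyl groups to mitochondria, had 911 CPM in the DfCS-Ib, 363 in the high-fat and 945 in the chow library. Both were low in the high-fat library, as was Crat, the carnitine acetyltransferase, which was 2.16-fold lower with the high-fat diet than with chow. Dbi, the acyl-CoA binding protein, ran the other way, at 302 CPM in the DfCS-Ib, 548 in the high-fat and 240 in the chow library. Of 13 genes of mitochondrial beta-oxidation, 0 passed 2-fold in any of the 3 comparisons, near the all-gene shares of 0.433% to 3.47%. Acadvl, the very long-chain acyl-CoA dehydrogenase, was listed at 0 in all 3 libraries and is not among them, and Acadl had 45 counts in the DfCS-Ib, 61 in the high-fat and 47 in the chow library. Hadh, a hydroxyacyl-CoA dehydrogenase, had the largest ratio among them, 1.49-fold higher with the high-fat diet than with chow (1.42 to 1.57), and Hadhb, of the trifunctional protein, followed, 1.46-fold higher with DfCS-Ib than with the high-fat diet (1.28 to 1.66). Of 15 peroxisomal acyl-CoA genes, 1 was higher (Ehhadh) and 1 lower (Abcd2) with DfCS-Ib than with the high-fat diet, and 1 was lower (Ehhadh) and 1 higher (Abcd2) with the high-fat diet than with chow. Ehhadh, a bifunctional enzyme of peroxisomal oxidation, had 1123 CPM in the DfCS-Ib library, 505 CPM in the high-fat library and 1529.6 CPM in the chow library. Abcd2, a peroxisomal importer of acyl-CoA, had 7.46 CPM in the DfCS-Ib, 37.1 in the high-fat and 16.7 in the chow library.

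Among the 8 lists of other metabolic, fasting and clock genes, those known to respond to PPAR alpha and to fasting had the medians farthest from 0 for DfCS-Ib against the high-fat diet and for the high-fat diet against chow. For DfCS-Ib against chow the medians were 0.18 for the PPAR alpha list and 0.02 for the fasting list. In that comparison 4 of 19 genes of the PPAR alpha list were higher and 0 lower. Of the fasting list 1 of 12 was higher and 0 lower, and of the clock list 3 of 13 were higher and 0 lower. The shares over all genes were 1.62% higher and 0.433% lower. Of 19 measured genes of PPAR alpha and its targets, 7 were higher and 0 lower with DfCS-Ib than with the high-fat diet, with a median of 0.68, and 1 was higher and 5 were lower with the high-fat diet than with chow, with a median of -0.46. Ppara itself had 617 CPM in the DfCS-Ib library, 288 CPM in the high-fat library and 421 CPM in the chow library. It was 2.15-fold higher with DfCS-Ib than with the high-fat diet (2.06 to 2.24) and 1.46-fold lower with the high-fat diet than with chow (1.40 to 1.53). The fatty acid hydroxylases Cyp4a10 and Cyp4a14, members of a family whose reads may also be shared, were 6.84-fold and 6.31-fold higher with DfCS-Ib than with the high-fat diet and 6.82-fold and 8.96-fold lower with the high-fat diet than with chow. Of 12 fasting-responsive genes, some of them also on the PPAR alpha list, 7 were higher and 0 lower with DfCS-Ib than with the high-fat diet, with a median of 1.31, and 0 were higher and 6 lower with the high-fat diet than with chow, with a median of -1.04. Igfbp1, which binds insulin-like growth factors, had 410 CPM in the DfCS-Ib library, 126 CPM in the high-fat library and 578 CPM in the chow library. Lpin1, a phosphatidate phosphatase, was 3.82-fold higher with DfCS-Ib than with the high-fat diet, and the coactivator Ppargc1a was 2.75-fold higher. The hormone gene Fgf21 had 9.41 CPM in the DfCS-Ib, 0.777 in the high-fat and 2.32 in the chow library. Of 13 clock genes, 3 were higher and 1 lower with DfCS-Ib than with the high-fat diet, and 1 was higher and 2 were lower with the high-fat diet than with chow. Ciart had 48 counts in the DfCS-Ib, 3 in the high-fat and 21 in the chow library. Per1 was also lowest in the high-fat library, at 27.6 CPM in the DfCS-Ib, 15.3 in the high-fat and 38.8 in the chow library. Npas2 was highest there, at 1.12, 7.23 and 2.14 CPM in the same libraries. Nr1d1, a clock repressor, had 97.0 CPM in the DfCS-Ib, 42.1 in the high-fat and 31.5 in the chow library. The sources used here give neither feeding state nor hour of collection, and the part of fasting-responsive or clock genes in the values of the thioesterases was not tested.

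**Figure D5:**
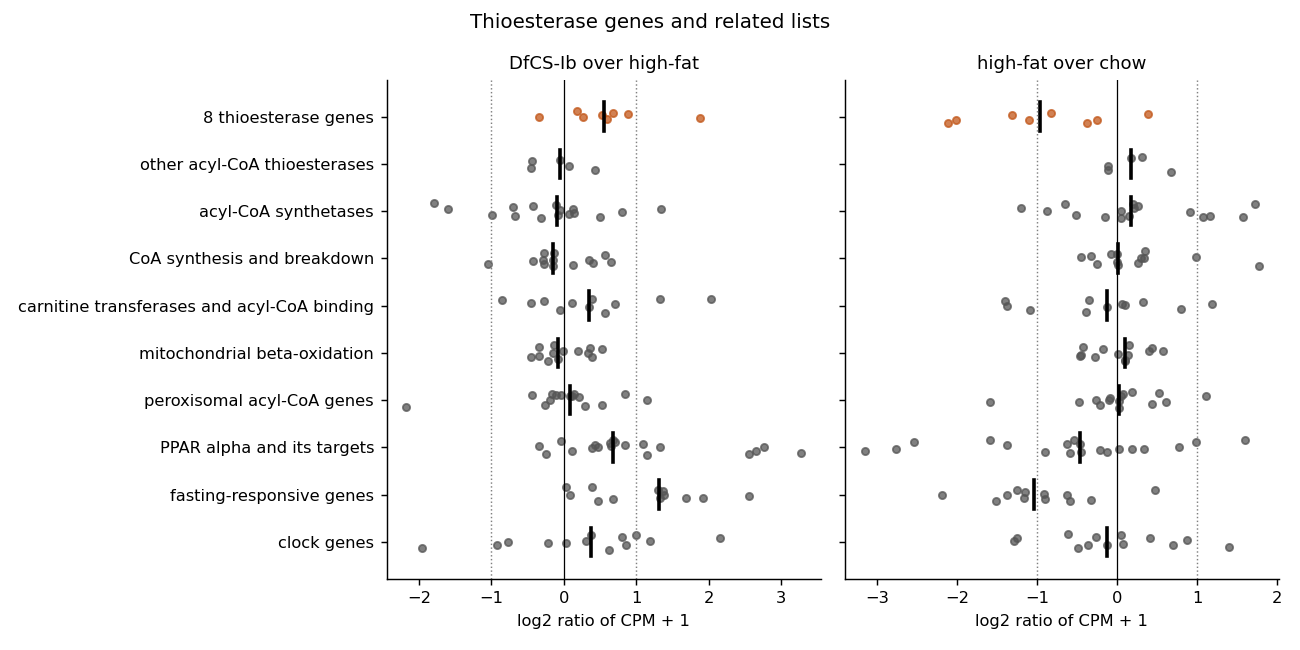
Log2 ratio of CPM plus 1 for each measured gene of the lists, with black bars at the medians and dotted lines at 1 and -1, for DfCS-Ib over high-fat (left) and high-fat over chow (right). The median of the 8 thioesterases is 0.56 for DfCS-Ib against the high-fat diet and -0.97 for the high-fat diet against chow, and that of the 12 fasting-responsive genes is 1.31 and -1.04.

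Among 7706 genes that averaged 10 CPM or more, the genes most like each thioesterase were those with the smallest Euclidean distance over 2 log2 ratios, that of DfCS-Ib against the high-fat diet and that of the high-fat diet against chow, measured over 3 libraries. For Acot1 these were Acmsd at a distance of 0.13, Igfbp1 at 0.20 and Sorbs3 at 0.25. For Acot3 they were Bcl6 at 0.23, Sik1 at 0.30 and Etnppl at 0.34. The ratios of Acot1 and Acot3 thus had no gene as close as Acot2 had in Epb4.1 at 0.02 or Acot12 had in Zfp445 at 0.03. Acot2 was also near Tmem120a and Per1, Acot4 near Bcor, Pi4ka and Arg1, and Acot12 near Dpy19l1 and Uspl1. Acot8 was nearest to Eif2b5, AI314180 and Ncor1, Acot9 to Npc1, Mrc1 and Etnk2, and Acot13 to Madd, Hsbp1 and Tradd. Genes with ratios near 0 have many close neighbours, and 3 libraries cannot separate them. The distances also depend on the pseudocount for low genes: the log2 ratio of Acot9 for DfCS-Ib against the high-fat diet was 0.69 with a pseudocount of 1, 0.90 with 0.25 and 0.30 with 5, a range wider than the distances of its neighbours.

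Total counts were 10969699 in the DfCS-Ib library, 12279537 in the high-fat library and 11028671 in the chow library. Markers of hepatocytes were all detected, with a summed level of 145999 CPM in the DfCS-Ib, 126411 CPM in the high-fat and 163043 CPM in the chow library; 0 of 10 were higher and 3 (Tat, Cps1 and Tdo2) were lower with the high-fat diet than with chow, with a median of -0.48, and with DfCS-Ib 1 was higher than with the high-fat diet, with a median of 0.39. The hepatocyte marker higher with DfCS-Ib was Tat, which is also on the fasting-responsive list. Cps1 is placed on a scaffold outside the main chromosomes, so its level may be understated. In bulk liver, fewer cells of a type and less RNA per cell cannot be told apart. Of 12 markers of macrophages and Kupffer cells, 12 had a ratio above 1 with DfCS-Ib relative to the high-fat diet, against 6382 of all 13153 genes. In that comparison 2 of the markers passed 2-fold. For the high-fat diet relative to chow, 11 of the 12 had a ratio above 1, against 6832 of the 13153 genes. The summed level of the markers was 998 CPM in the DfCS-Ib, 595 in the high-fat and 469.7 in the chow library. For DfCS-Ib against chow, 6 of the 12 passed 2-fold, all higher, with a median of 0.999. Of the other types, skeletal muscle had 0 of 6 markers above 1 CPM, and lymphocytes and neutrophils 1 of 10. Of 8 endothelial markers, 1 was higher with DfCS-Ib than with the high-fat diet and 1 lower with the high-fat diet than with chow. Of 8 stellate cell markers 1, Col3a1, was higher than with chow both with the high-fat diet and with DfCS-Ib. Of 3 measured brown fat markers, Ppargc1b was higher with DfCS-Ib than in both other libraries, and Elovl3 higher with the high-fat diet than with chow. Of 5 measured erythroid markers, Hbb-bs was higher with DfCS-Ib than with the high-fat diet. Alas2 was higher with the high-fat diet than with chow. Of 4 measured cholangiocyte markers, 0 passed 2-fold. The adipocyte markers Lep and Retn were listed at 0 in all 3 libraries, while Cfd, the one adipocyte marker above 1 CPM, had 0.280 CPM in the DfCS-Ib, 5.98 in the high-fat and 0.0929 in the chow library. Cela1, the one exocrine pancreas marker above 1 CPM, had 5.31 CPM in the DfCS-Ib, 13.2 in the high-fat and 3.35 in the chow library, and 4 of the 6 on that list were at 0 throughout. The part of these marker levels in the values of the thioesterases was not tested.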

How the data were processed

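RNA was measured in 3 liver libraries, 1 per group, from total RNA extracted with TRIzol. The authors deposited raw read counts for 41799 genes and, per the file headers, the RPKM computed from them, with mm10 positions and lengths. The RPKM equals the count divided by length and file total, with a deviation of at most 0.000503% among chow genes of 100 or more counts. The submitters' processing notes name TopHat2 and mm10; of the counter, its strand setting and its handling of reads with several placements, the sources used here say nothing. A total of 0 value columns could not be mapped to a sample.

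CPM values came from the counts and the TMM factors 0.978 (DfCS-Ib), 1.048 (high-fat) and 0.976 (chow), from edgeR 4.0.16 in R 4.3.3; DESeq2 1.42.0 gave alternative size factors. Ratios, intervals and figures used Python 3.11.15, numpy 2.4.6, pandas 2.3.3, scipy 1.17.1 and matplotlib 3.10.9. Of 41799 genes, the 13153 that averaged 1 CPM or more were analysed. Log2 ratios were taken on CPM plus 1, which understates differences of genes with few reads; folds carry no pseudocount. A count of 0 allows up to 3 counts, or 0.280 CPM in the DfCS-Ib, 0.233 CPM in the high-fat and 0.279 CPM in the chow library. Reads without molecular identifiers are not independent molecules, so intervals and floors cover counting error only. Angptl4 and Acadvl, known liver genes, were listed at 0 in all 3 libraries, and the files place Angptl4, Acadl and Cps1 on scaffolds outside the main chromosomes, so low values may be understated. The scripts were tested on simulated data with known fold changes. The simulated counts held counting error only, and the changed genes lay above the level of Acot9. That test therefore does not cover spread between animals, shared reads or genes with few counts.

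Named genes were the 8 members, the other thioesterases, up to 4 genes of each function list with the largest absolute log2 ratio, the 3 nearest genes to each member, and Ppara and Pctp. Marker genes, overlapping genes and LOC105244956 are named besides. The members and the gene lists were chosen with earlier results of these data known. The alternatives were size factors from DESeq2, no TMM factors, RPKM, other pseudocounts and filters, leaving out the 50 most abundant genes, summing Acot1 to Acot6, and ranking without length.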

Additional observations from a re-analysis of the deposited data

How the results depend on the processing

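Of the results under the alternatives, 301 stayed within their margin and 41 moved. The margin was a fixed fold for counts of genes, the reach of the counting interval to 1 side for log2 ratios, and no change for ranks. Some of the 301 could not move: all 8 thioesterases pass the filter, so their values are the same without it. Every log2 ratio of the 8 thioesterases kept its sign, but only a change of scaling could have turned one. A pseudocount keeps the sign by construction, and the filter leaves these ratios as they are. RPKM gives each gene the same sign as CPM without TMM factors. The sign was thus open only without TMM factors, with DESeq2 size factors, and when scaling ignored the 50 highest genes. In size, the log2 ratios of Acot12 and Acot3 moved. Acot12 for DfCS-Ib against the high-fat diet was 0.49 without TMM factors and 0.49 on RPKM plus 1, instead of 0.59. For the high-fat diet against chow it was -0.73 and -0.72, instead of -0.83. Acot3 for the high-fat diet against chow was -1.61 on RPKM plus 1 and -1.58 with a pseudocount of 5, instead of -2.01. The mitochondrial sum for the high-fat diet against chow, -0.05 as reported, had the other sign without TMM factors (0.05) and with RPKM. Without TMM factors, the log2 ratio of the cytosolic sum was 0.75 instead of 0.85 for DfCS-Ib against the high-fat diet and -0.98 instead of -1.09 for the high-fat diet against chow, while the median of all genes shifted to -0.10 and 0.11. With RPKM, the mitochondrial sum gave -0.32 for DfCS-Ib against the high-fat diet and 0.30 for the high-fat diet against chow, since it weighs the short Acot13 more, and the peroxisomal sum gave -0.87 for the high-fat diet against chow and -0.58 for DfCS-Ib against chow. On RPKM plus 1, the number of all genes was 176 higher for DfCS-Ib against the high-fat diet and 166 lower for the high-fat diet against chow. For DfCS-Ib against chow it was 125 higher and 31 lower. These counts differ from those on CPM without TMM factors only through the added 1, because length cancels from the ratio of 1 gene. A pseudocount of 0.25 gave 355 higher and 152 lower for DfCS-Ib against chow. A pseudocount of 5, which shrinks ratios by construction, gave 166 higher and 128 lower for DfCS-Ib against the high-fat diet, 230 higher and 164 lower for the high-fat diet against chow, and 82 higher and 21 lower for DfCS-Ib against chow. Leaving out the 50 most abundant genes gave 93 lower for DfCS-Ib against chow. Summing Acot1 to Acot6 as 1 feature, which leaves fewer features by construction, gave 1 lower with a median of -0.38 for the high-fat diet against chow and 0 lower with a median of -0.061 for DfCS-Ib against chow. Except where stated, the cause was not tested. By counts without length, 12 of 24 ranks of the thioesterases moved, and Acot12 stood above Acot13 in the high-fat library. No paired analysis was possible because each group has 1 library and the columns carry no replicate numbers; for the same reason no replicate could be left out. Depth limits Acot9, with 32 counts in the DfCS-Ib, 19 in the high-fat and 24 in the chow library.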
